A study of Rattus norvegicus with 6 samples.

Results

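Fatty acid oxidation genes and targets of the nuclear receptor PPAR alpha were followed in the renal cortex of rats given potassium bromate, as 37 genes chosen by symbol from the pathway, with earlier results of these data known. The receptor and its coactivator, the carnitine shuttle, the enzymes of the mitochondrial and peroxisomal spirals, electron transfer, omega-hydroxylation, acyl-CoA formation and the receptor's classic targets are among them. Each gene was read from its brightest probe, kept if 3 or more of the 6 arrays flagged it as well above background, and 37 of 37 members were measured among 27506 genes tested. The study compared male Sprague-Dawley rats, bought at 5 weeks of age and kept on a basal diet, in 2 groups of 3 animals. The control rats received water and the treated rats potassium bromate at 100 mg/kg/day, each over 4 weeks, and RNA of whole renal cortex was hybridised to 1-colour Agilent arrays. The labels name no allele or transgene, so the groups differ in treatment only as far as the labels say. All levels below are log2 processed signals with the 75th percentile of each array set to 0, differences are bromate minus water with their standard error, and n is 3 rats per group throughout.

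Cells burn fatty acids mainly in mitochondria, where carnitine carries long chains across the inner membrane and a spiral of dehydrogenation, hydration, a further dehydrogenation and thiolysis removes acetyl units. Peroxisomes shorten very long and branched chains with oxidases that pass electrons to oxygen and yield hydrogen peroxide, and microsomal CYP4A enzymes hydroxylate the far end of fatty acids. In the kidney the proximal tubule relies on this pathway for energy, and PPAR alpha, a receptor for fatty acids, switches on many of its genes in both organelles.

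Most members had lower signals after bromate, with a pair of exceptions that rose. Of the 37, 14 fell (37.8%) and 2 rose (5.41%) at an adjusted p under 0.05 (limma, Benjamini-Hochberg over all genes), where 7.59% of all genes tested fell, 6.87% rose and 14.5% changed in either direction. The median member difference was -0.36, against -0.02 over all genes tested, and 32 members had a lower mean. For 26 members (70.3%) the 3 bromate values and the 3 water values did not overlap, against 41.0% of all genes. A lack of overlap named below for a single gene is therefore common and is not a call. The omega-hydroxylase gene Cyp4a1 fell furthest among the called members, to 52.7% of its water level, followed by Acsm2 and Acadm, while the omega-hydroxylase gene Cyp4a3 and the secreted lipase inhibitor gene Angptl4 rose 1.52-fold and 1.59-fold. The counts moved with each array left out. With water replicate 1 left out, 7 members were called lower and 0 higher, the counts became 4 and 0 for water replicate 2, and for the third water rat 2 and 0. The bromate rats gave 9 and 1 when replicate 1 was dropped, 2 and 1 when it was replicate 2, and 3 and 0 when it was replicate 3. Calls over all genes dropped as well in those fits, from 14.5% with all arrays to between 4.09% and 12.1%. Of the 27506 genes, 530 to 1835 then fell and 594 to 1495 rose, against 2088 and 1891 with all arrays. All 16 called members kept their direction in those fits, and 2 of them, Cyp4a1 and Acsm2, kept their call in all 6.

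**Figure D1:**
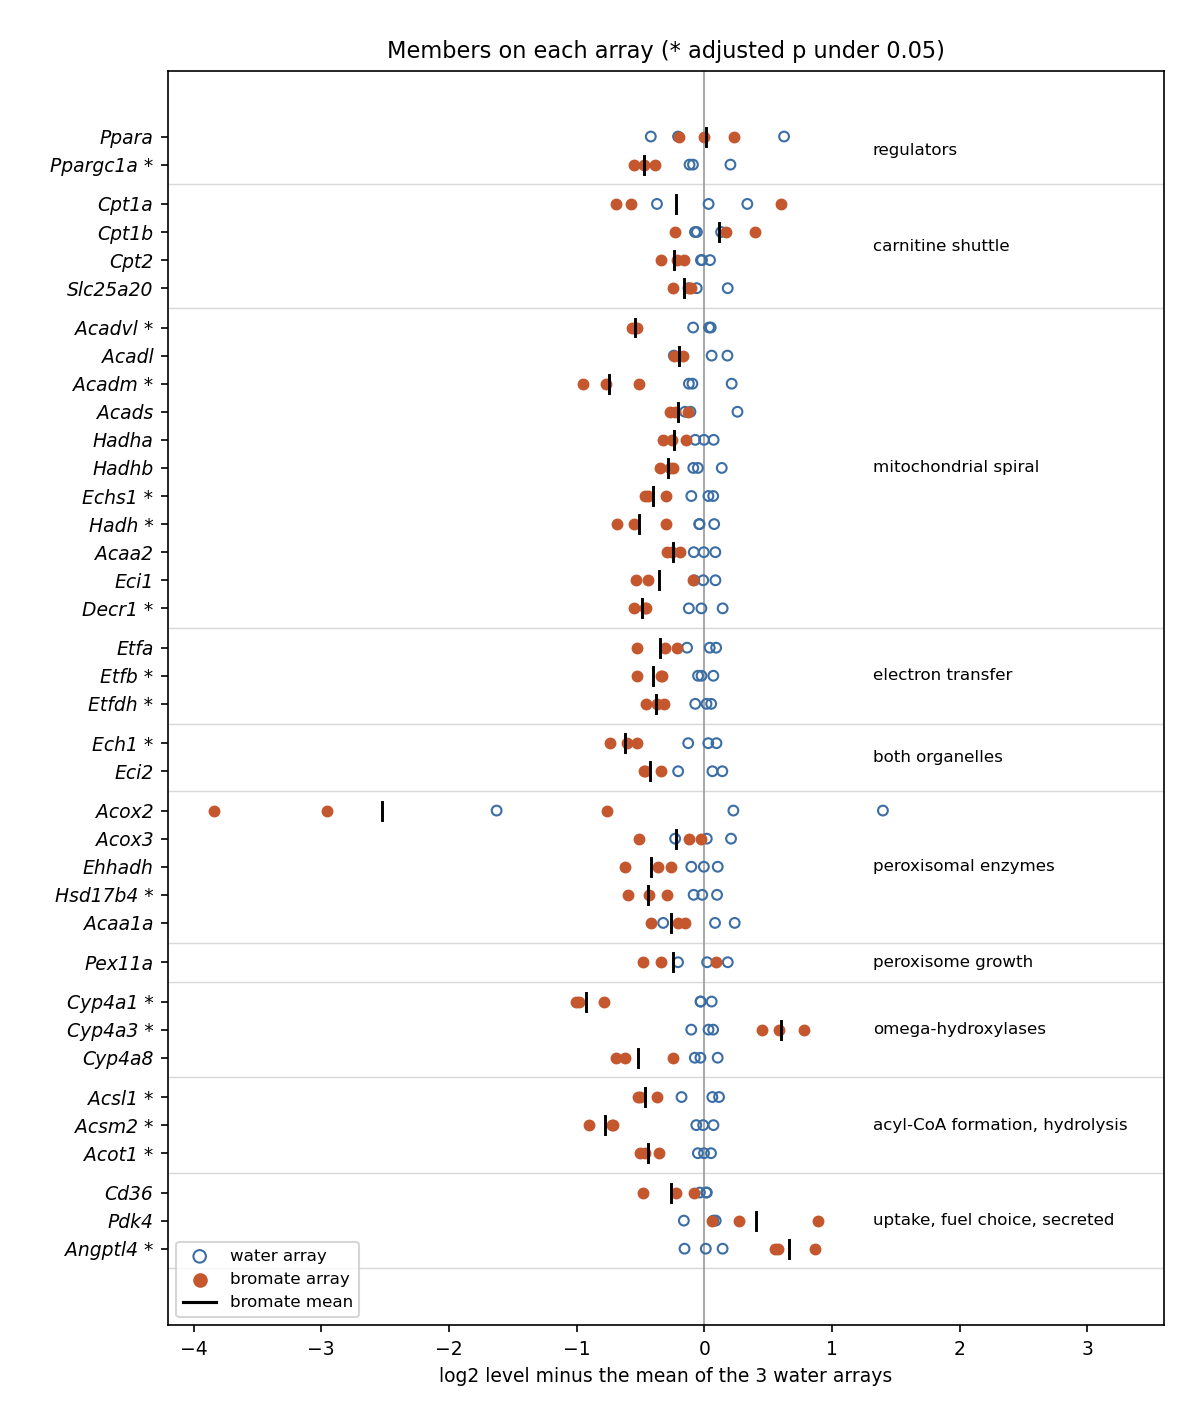
Log2 level of each of the 37 members on every array, minus the mean of the 3 water arrays, by role. Open circles are water rats, filled circles bromate rats, bars the bromate means, and asterisks mark the 16 members called at an adjusted p under 0.05. Most bromate means lie left of 0, Cyp4a3 and Angptl4 lie right of it, and Acox2 is the most scattered.

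The arrays differed in ways that touch these values. Between 57.89% and 63.05% of the probes were well above background on each array and none was saturated, and the number of arrays limits the precision. Water replicate 1 was alone on its slide, so slide as a block gives the counts printed above without that array. Nephron segment markers were not level between the groups. Over all genes tested 7.59% fell and 6.87% rose. Of 8 measured markers of the thick limb and distal tubule 6 fell (median -1.67), and of 9 collecting duct markers 5 fell (median -1.08). Of 18 proximal convoluted tubule markers 5 fell and 1 rose (median -0.31), with a marker mean of 6.17, 6.23 and 6.35 in water and 6.04, 6.01 and 6.03 in bromate rats, so genes of the main tubule of the labelled cortex were bright on every array. In bulk cortex, fewer proximal cells and less RNA per cell cannot be told apart, and the part of these marker shifts in the member differences was not tested. Of 5 measured fat cell markers and 3 striated muscle markers none was called, the fat cell hormone gene Lep and the muscle gene Ckm were not measured above background, and of 8 macrophage markers 1 rose, Cd14. Of 6 podocyte markers 1 fell, and albumin (Alb), which defines hepatocytes, was not measured above background. The liver genes Ttr, Apoa2, Serpina1 and Tat were not measured above background either. Neither of the 2 measured liver markers was called, but both varied widely between rats. Their mean read 3.00, -0.84 and -2.17 in water rats and -0.54, -2.40 and -2.01 in bromate rats, highest on water replicate 1. F2 differed by 0.84 ± 0.96 (adjusted p = 0.584) and Cyp2c11 by -4.14 ± 1.79 (adjusted p = 0.171, limma). Cyp2c11 was well above background on 1 bromate array.

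Of the regulators, the coactivator gene fell and the receptor gene had no difference that these arrays could resolve. Ppargc1a, which encodes PGC-1 alpha, a coactivator of nuclear receptors that drives mitochondrial gene expression, read -0.64, -0.66 and -0.34 in water rats and -1.09, -1.02 and -0.94 in bromate rats. Each bromate rat was below each water rat. The gene fell by 0.47 ± 0.12 on the log2 scale (adjusted p = 0.0475, limma), a call lost on leaving out any 1 array (adjusted p up to 0.128), with the percentile taken over probes bright on all arrays (adjusted p = 0.0526) and with normexp (adjusted p = 0.0605). Ppara, the fatty acid receptor itself, read -0.13, -0.34 and 0.70 in water rats and 0.08, 0.30 and -0.12 in bromate rats. Water replicate 3 was the highest of all, and the groups overlapped. Its difference was 0.01 ± 0.29 with a 95% interval of -0.70 to 0.72 (adjusted p = 0.983, limma), a width that leaves the receptor gene unresolved with 3 rats per group, and its sign turned in 7 of 19 alternative settings.

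Of 22 other nuclear receptors and coregulators measured, 1 rose (4.55%) and 3 fell (13.6%), with a median of -0.19, where 6.87% of all genes rose and 7.59% fell. Ppard, the delta receptor of the same family, fell by 0.98 ± 0.12 (adjusted p = 0.00904, limma). Pprc1, a coactivator related to PGC-1 alpha, rose by 0.99 ± 0.16 (adjusted p = 0.0183). Hnf4a, a receptor that maintains proximal tubule identity, fell by 0.70 ± 0.09 (adjusted p = 0.0105, limma) and is named here after its value was seen.

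PPAR alpha binds DNA with the retinoid X receptor at a direct repeat of the half-site AGGTCA spaced by 1 base, so the promoters of the members were searched for it. Of the 37 genes, 31 have a promoter (250 bases before to 50 after the gene start) in the RefSeq table of the rat build GRCr8. The exact repeat, on either strand, was in 0 of the 31 and in 18 of all 33469 promoters (0.0538%). With up to 1 mismatch in each half-site it was in 4 of the 31 (12.9%), against 755 of all promoters (2.26%). Of the 4 genes, Acadvl and Echs1 fell while Etfa and Slc25a20 were not called, and neither Cyp4a3 nor Angptl4, which rose, has a match in this window. Matches were thus in 2 of 11 searched members that fell (18.2%) and 2 of 18 not called (11.1%). Cyp4a1, Decr1 and Ech1, which fell, have no promoter in the table and were not searched. A match is a likeness of letters and no measured binding site, and no match says only that the letters are not in these 300 bases. The stretches are shown because they hold the repeat in capitals, written along the gene's own strand. In Echs1 and Etfa the repeat reads along the opposite strand, so the capitals show its reverse complement. For Acadvl the first half-site is complete and the stretch lies at chr10:55236706-55236762, minus strand, with the repeat starting 17 bases before the gene start. In Echs1 (chr1:204333609-204333701, minus strand) and Etfa (chr8:64788067-64788159, minus strand) the capitals, read along the gene's strand, begin 155 and 154 bases before the gene start. In Slc25a20 (chr8:118243588-118243600, plus strand) they begin 15 bases after it.
Acadvl: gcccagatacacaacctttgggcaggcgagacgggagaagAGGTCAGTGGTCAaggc
Echs1: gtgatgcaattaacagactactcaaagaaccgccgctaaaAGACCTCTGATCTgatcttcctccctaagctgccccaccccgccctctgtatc
Etfa: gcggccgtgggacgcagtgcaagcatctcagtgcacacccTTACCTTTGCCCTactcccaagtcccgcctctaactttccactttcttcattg
Slc25a20: AGGTGAAAGGTCG

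None of the 4 genes of the carnitine shuttle, the entry of long chains into mitochondria, was called. Cpt1a, the outer membrane enzyme of liver and kidney that sets the rate of entry, read 3.14, 2.44 and 2.84 in water rats and 3.41, 2.23 and 2.11 in bromate rats. Bromate replicate 1 was the highest of the 6 and the other bromate rats the lowest. The difference was -0.22 ± 0.38 (95% interval -1.16 to 0.72, adjusted p = 0.726, limma), and without bromate replicate 3 it was 0.01. Cpt1b, the muscle form, had overlapping groups and a difference of 0.11 ± 0.17, and a second, dim Cpt1b probe pointed the other way (-0.70 ± 0.20, adjusted p = 0.0682). Slc25a20, the carrier that exchanges acylcarnitine for carnitine, had a difference of -0.16 ± 0.11 (adjusted p = 0.365). Cpt2, which rebuilds the acyl-CoA inside, read 3.71, 3.72 and 3.78 in water rats and 3.58, 3.4 and 3.52 in bromate rats. These 2 groups of Cpt2 values did not overlap, but its difference of -0.23 ± 0.08 did not pass the test (adjusted p = 0.115, limma).

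Within the mitochondrial spiral 5 of 11 genes fell (45.5%) and none rose, where 7.59% of all genes fell and 6.87% rose. All 11 had a lower mean in bromate rats (median -0.36). The 4 acyl-CoA dehydrogenases, each for a range of chain lengths, differed in how far they shifted. Acadvl, the enzyme of very long chains, read 4.72, 4.58 and 4.71 in water rats and 4.13, 4.11 and 4.14 in bromate rats. All bromate rats lay close together below every water rat. The gene fell by 0.55 ± 0.08, to 68.5% of the water level (adjusted p = 0.0131, limma), a call lost without water replicate 3 (adjusted p = 0.0518) or bromate replicate 2 (adjusted p = 0.054). Acadm, the medium-chain enzyme, read 6.72, 6.39 and 6.42 in water rats and 6.0, 5.56 and 5.74 in bromate rats. The groups did not overlap although replicate 1 was the highest rat of each. Acadm fell by 0.74 ± 0.15, to 59.7% (adjusted p = 0.0305), and kept its call on leaving out bromate replicate 1 but on leaving out none of the other 5 arrays (adjusted p 0.0568 to 0.0892). Acadl and Acads, the long-chain and short-chain enzymes, had differences of -0.20 ± 0.12 and -0.21 ± 0.13 (adjusted p = 0.315 and 0.323), and the groups of both overlapped. Whether the chain-length enzymes differed from each other was not tested.

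Of the 7 genes of the later steps and of unsaturated chains, 3 were called, where 14.5% of all genes were called in either direction. Echs1, the hydratase of short chains, read 6.78, 6.61 and 6.74 in water rats and 6.24, 6.27 and 6.41 in bromate rats. Every bromate rat was lower, and the gene fell by 0.40 ± 0.09 (adjusted p = 0.0392). Hadh, the hydroxyacyl-CoA dehydrogenase of the matrix, read 7.40, 7.40 and 7.51 in water rats and 7.14, 6.75 and 6.88 in bromate rats. Its groups did not overlap and it fell by 0.51 ± 0.12 (adjusted p = 0.0431, limma). Decr1, a reductase needed for unsaturated chains, read 5.70, 5.60 and 5.86 in water rats and 5.26, 5.17 and 5.26 in bromate rats. The bromate rats were tightly grouped below the water rats, and Decr1 fell by 0.49 ± 0.10, to 71.2% of the water level (adjusted p = 0.0284). Hadha and Hadhb, which encode the subunits of the trifunctional protein that performs the last 3 steps on long chains, had differences of -0.24 ± 0.09 and -0.29 ± 0.09 that did not pass (adjusted p = 0.122 and 0.0932). Acaa2, the thiolase, and Eci1, an isomerase for unsaturated chains, had differences of -0.25 ± 0.08 and -0.36 ± 0.14 (adjusted p = 0.103 and 0.135). None of these last 4 genes had overlapping groups, which was also so for 41.0% of all genes. The calls of Echs1 and Decr1 were lost on leaving out any 1 array (adjusted p up to 0.12 and 0.0952), and that of Hadh survived the loss of bromate replicate 1 but of no other array (adjusted p up to 0.121).

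The electron transfer genes carry the electrons of the dehydrogenases to the respiratory chain, and 2 of the 3 fell, against 7.59% of all genes. Etfb, the beta subunit of the electron transfer flavoprotein, read 6.32, 6.35 and 6.44 in water rats and 6.04, 5.85 and 6.03 in bromate rats. Etfdh, the membrane dehydrogenase that takes electrons from the flavoprotein, read 3.11, 3.24 and 3.20 in water rats and 2.72, 2.87 and 2.81 in bromate rats. In both genes all bromate rats were below all water rats. Etfb fell by 0.40 ± 0.09 (adjusted p = 0.0403) and Etfdh by 0.38 ± 0.08 (adjusted p = 0.0359, limma). Etfa, the alpha subunit, had a difference of -0.35 ± 0.12, with no overlap and no call (adjusted p = 0.0988). Leaving out any 1 array ended the call of Etfb (adjusted p 0.0618 to 0.118), and any array other than water replicate 1 that of Etfdh (adjusted p up to 0.117), which quantile normalization also ended (adjusted p = 0.0516).

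Ech1 and Eci2, isomerases found in both organelles, were counted with neither. Ech1 read 5.03, 4.81 and 4.97 in water rats and 4.41, 4.2 and 4.33 in bromate rats. The groups stood well apart, and Ech1 fell by 0.62 ± 0.10, to 64.9% of the water level (adjusted p = 0.0169, limma). That call was lost without water replicate 3 (adjusted p = 0.0612), bromate replicate 2 (0.0608) or bromate replicate 3 (0.055). Eci2 had no overlap and a difference of -0.42 ± 0.12 just outside the threshold (adjusted p = 0.0617).

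Of the 5 peroxisomal enzymes 1 fell (20%) and none rose, where 7.59% of all genes fell and 6.87% rose. All 5 had a lower mean in bromate rats (median -0.42). Hsd17b4, the bifunctional enzyme that handles branched chains and bile acid precursors, read 6.09, 6.16 and 6.28 in water rats and 5.58, 5.74 and 5.89 in bromate rats. Every bromate rat was lower than every water rat. Hsd17b4 fell by 0.44 ± 0.11 and passed narrowly (adjusted p = 0.0493, limma). The call rests on how probes without a gene symbol were counted, since the adjusted p was 0.0501 with each such probe kept apart, and it was lost on leaving out any 1 array (adjusted p up to 0.133) and under the 3 other scalings (adjusted p 0.0588 to 0.0814). A second Hsd17b4 probe read lower by 0.52 ± 0.12 (adjusted p = 0.0396 in a separate limma fit over all probes that passed the filter). Ehhadh, the other bifunctional enzyme and a classic PPAR alpha target, read 3.16, 3.06 and 3.27 in water rats and 2.90, 2.80 and 2.54 in bromate rats. The groups did not overlap, but the difference of -0.42 ± 0.12 did not pass (adjusted p = 0.0735). Acaa1a, the peroxisomal thiolase, had overlapping groups on its brightest probe (-0.26 ± 0.17, adjusted p = 0.331, limma), while a second probe passed (-0.49 ± 0.11, adjusted p = 0.037). Acox3, an oxidase of branched chains, had overlapping groups and a difference of -0.22 ± 0.17 (adjusted p = 0.428), and Pex11a, a membrane protein of peroxisome division, had overlapping groups and a difference of -0.24 ± 0.18 (adjusted p = 0.4).

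Acox2, the branched-chain oxidase of bile acid synthesis, was the most variable member. It read -1.01, -2.18 and -4.04 in water rats and -6.25, -5.37 and -3.17 in bromate rats, and was well above background on 3 water arrays and 1 bromate array. The lowest water rat was below the highest bromate rat. The difference of -2.52 ± 1.04 (95% interval -5.08 to 0.04) did not pass (adjusted p = 0.156, limma), and depth of signal limits it, because 2 bromate values lie under the lowest signal called well above background on those arrays (-4.55 and -4.87). Over the same arrays the mean of 12 straight proximal tubule markers read 3.05, 1.75 and 0.59 in water rats and 1.14, 0.18 and 1.11 in bromate rats, with none of the 12 called. The water rats stood in the same order for Acox2 and the straight tubule mean. Bromate replicate 1 was lowest for Acox2 and highest for the marker mean, but the order of the bromate rats cannot be read. Of their Acox2 values 2 lie under the lowest signal called well above background. The marker means of bromate replicates 1 and 3 nearly coincide (1.14 and 1.11). The part of the straight tubule in the Acox2 values was not tested.

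**Figure D2:**
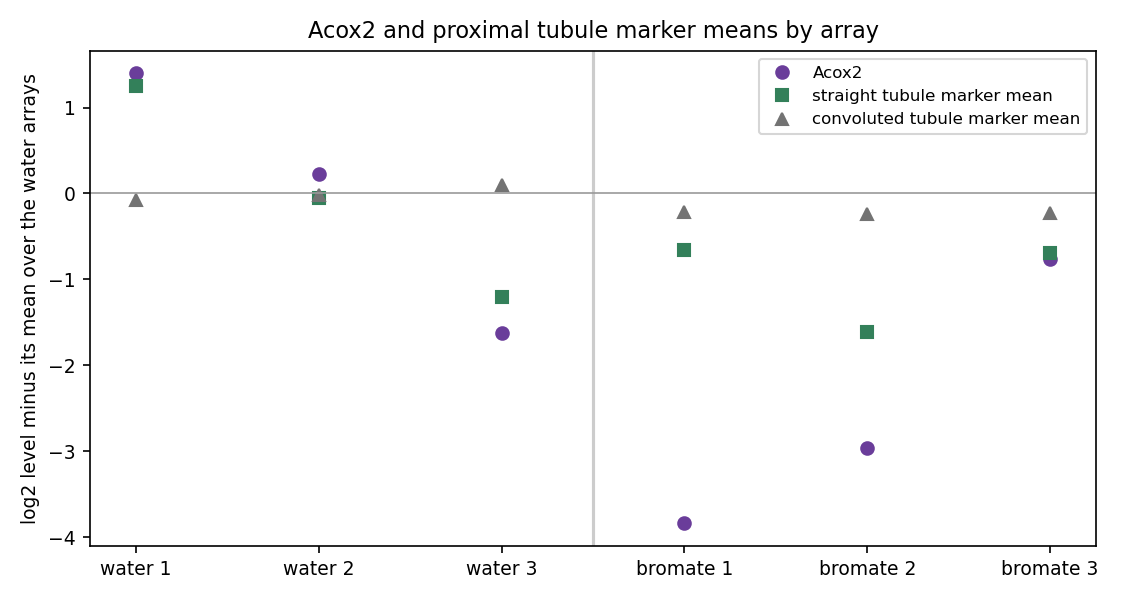
Log2 level on each array, minus the mean over the 3 water arrays, of Acox2, of the mean of 12 straight proximal tubule markers and of the mean of 18 convoluted tubule markers. Acox2 and the straight tubule mean are both high on water replicate 1 and low on water replicate 3, and Acox2 is lowest on bromate replicate 1. The convoluted tubule mean moves little on this axis, but it is lower on every bromate array than on every water array (group difference -0.23).

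Set against each other, the mitochondrial and peroxisomal enzymes gave a contrast of means that rested on Acox2, a gene measured above background mainly in water rats. The mitochondrial enzymes are those of the carnitine shuttle, the spiral and electron transfer, so Acsm2, counted with acyl-CoA formation, is not among them. Over the 18 mitochondrial enzymes 7 fell (38.9%) and none rose, with a median of -0.32, where 7.59% of all genes fell and 6.87% rose. Over the 5 peroxisomal enzymes 1 fell with a median of -0.42, a count too small to set against either share. The mitochondrial mean read 4.85, 4.69 and 4.82 in water rats and 4.58, 4.34 and 4.45 in bromate rats, a difference of -0.33. The peroxisomal mean differed by -0.77 with Acox2 and by -0.33 without it. Mitochondrial minus peroxisomal mean, whose size depends on the probes and of which only the shift can be read, was 2.56, 2.77 and 3.02 in water rats and 3.66, 3.18 and 2.84 in bromate rats. The groups overlapped, as bromate replicate 3 lay below water replicate 3, and the shift of 0.45 stood beside SDs of 0.23 in water and 0.41 in bromate rats. Without bromate replicate 1 it was 0.23. Without Acox2 the values were 1.74, 1.75 and 1.56 in water rats and 1.87, 1.55 and 1.65 in bromate rats, and the shift was 0.0076. Leaving Acox2 out was chosen after its values were seen, and no test was made of these scores because the members were chosen with results known.

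**Figure D3:**
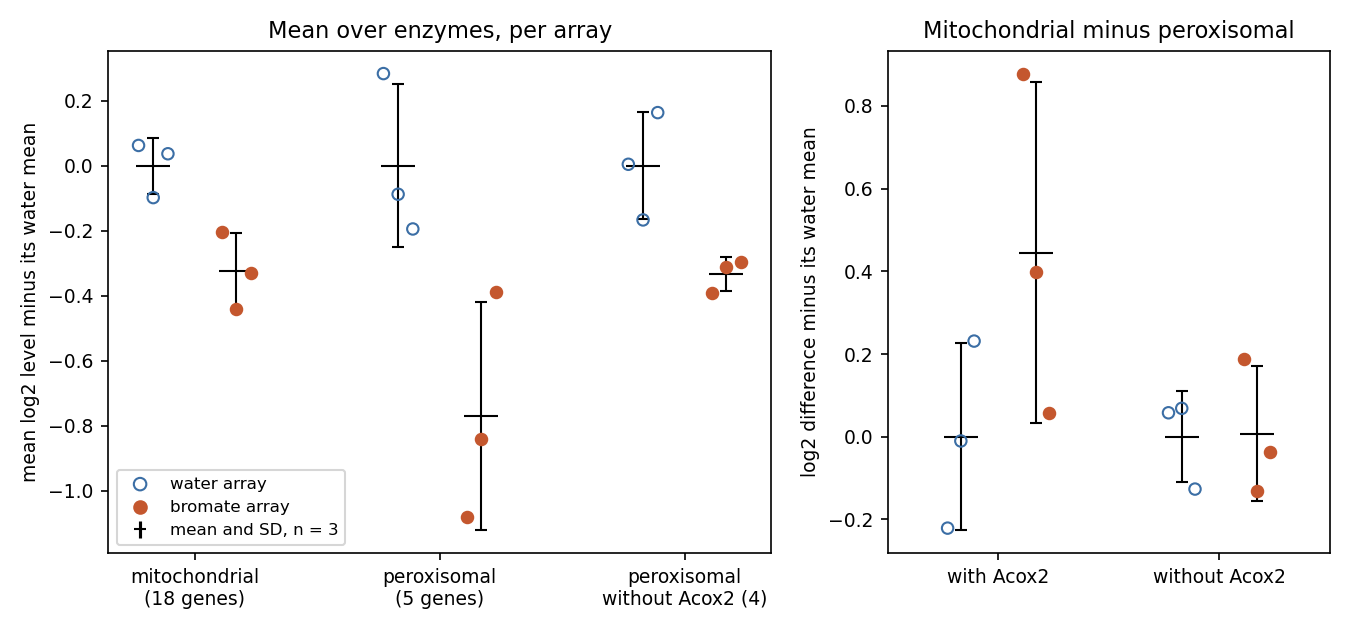
Left, the mean log2 level of the mitochondrial enzymes, the peroxisomal enzymes and the peroxisomal enzymes without Acox2 on each array, minus its mean over the 3 water arrays; right, the mitochondrial mean minus the peroxisomal mean on the same scale. Circles are rats, bars the group mean and SD (n = 3), and the group shift of 0.45 with Acox2 shrinks to 0.0076 without it.

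Beyond the members, 21 other mitochondrial lipid enzymes were measured, of which 7 fell (33.3%) and 1 rose (4.76%), with a median of -0.32. Over all genes tested 7.59% fell and 6.87% rose. Acadsb, a dehydrogenase of branched short chains, fell by 0.91 ± 0.14 (adjusted p = 0.0142), Slc22a5, the plasma membrane carnitine transporter, by 0.87 ± 0.11 (adjusted p = 0.0081, limma) and Pccb, a subunit of propionyl-CoA carboxylase, by 0.80 ± 0.08 (adjusted p = 0.00425). Of 32 other peroxisomal genes 8 fell (25%) and none rose (median -0.28). Amacr, a racemase for branched chains, fell by 1.09 ± 0.25 (adjusted p = 0.0409), Hacl1, the lyase of alpha-oxidation, by 0.86 ± 0.18 (adjusted p = 0.0326), and Hao2, a hydroxyacid oxidase of kidney peroxisomes, by 0.82 ± 0.09 (adjusted p = 0.00593, limma). Among 15 peroxisome assembly genes 3 fell (20%) and none rose. Of the 3, Pex7 and Pex5, the import receptors, fell by 0.54 ± 0.09 and 0.40 ± 0.09 (adjusted p = 0.0188 and 0.0409, limma).

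Of the 3 omega-hydroxylase members, Cyp4a1 fell, Cyp4a3 rose and Cyp4a8 was not called. Cyp4a1, the CYP4A form best known as a PPAR alpha target in rat liver, read 5.56, 5.65 and 5.56 in water rats and 4.61, 4.58 and 4.80 in bromate rats. The groups were tight and far apart. Cyp4a1 fell by 0.92 ± 0.09, to 52.7% of the water level (adjusted p = 0.00476, limma), a second probe fell by 0.82 ± 0.10 (adjusted p = 0.00868), and the call held in all 19 alternative settings (adjusted p up to 0.0427). Cyp4a3, a paralogue, read 6.80, 6.94 and 6.98 in water rats and 7.68, 7.36 and 7.49 in bromate rats. Here every bromate rat was above every water rat. Cyp4a3 rose by 0.60 ± 0.11, 1.52-fold (adjusted p = 0.0241, limma), a call kept without bromate replicate 1 (adjusted p = 0.0489) or bromate replicate 2 (adjusted p = 0.0488) and lost without any 1 of the other arrays (adjusted p up to 0.0781). Within each array, Cyp4a3 minus Cyp4a1 was 1.24, 1.29 and 1.42 in water rats and 3.07, 2.77 and 2.69 in bromate rats. These differences restate the 2 calls from the same values and add no test.

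Cyp4a8, the form known from rat kidney and prostate, was less clear. Its brightest probe read 8.46, 8.32 and 8.28 in water rats and 8.11, 7.73 and 7.66 in bromate rats. No values overlapped, and the difference of -0.52 ± 0.14 fell just short of the threshold (adjusted p = 0.0587, limma). Its other 2 probes pointed the other way, at 0.16 ± 0.17 (adjusted p = 0.553) and 0.10 ± 0.21 (adjusted p = 0.772). Only 1 probe was measured for Cyp4a3. Cyp4a2, a paralogue outside the members that is named after its value was seen, had overlapping groups. Its difference was -0.31 ± 0.14 (adjusted p = 0.19, limma), of the opposite sign to Cyp4a3. The Cyp4a genes are related paralogues and may share labelled RNA on a probe, so which transcript each probe reports cannot be told apart here.

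**Figure D4:**
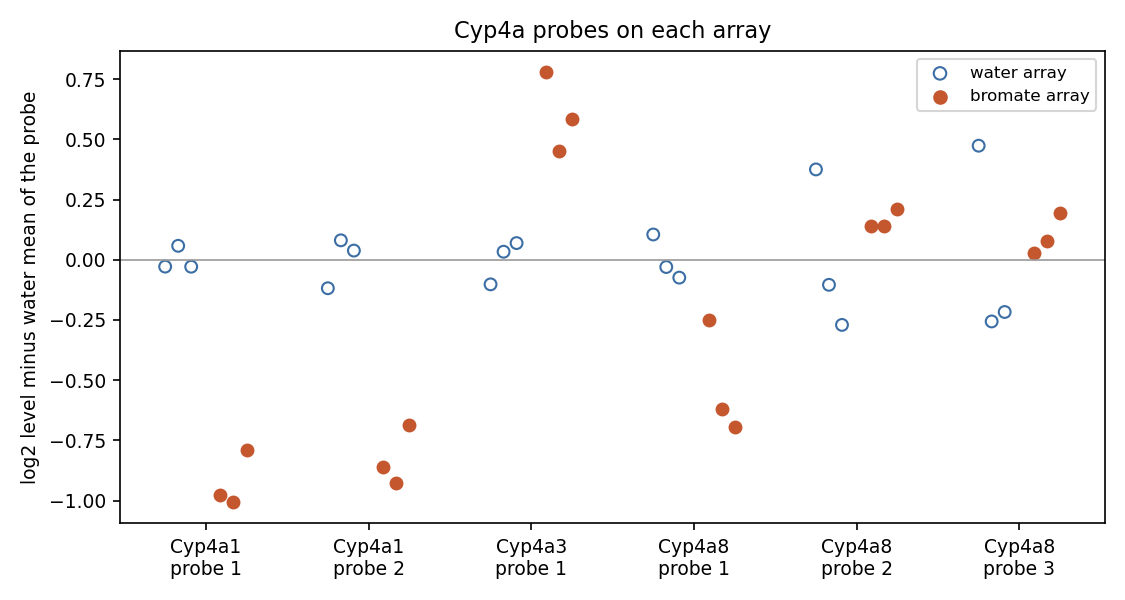
Log2 level of each measured probe of Cyp4a1, Cyp4a3 and Cyp4a8 on each array, minus that probe's mean over the 3 water arrays. Open circles are water rats and filled circles bromate rats. Both Cyp4a1 probes lie lower in bromate rats and the Cyp4a3 probe higher, while the 3 Cyp4a8 probes disagree.

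All 3 genes that make or break acyl-CoA fell, where 7.59% of all genes fell. Acsm2, a medium-chain acyl-CoA synthetase of kidney and liver mitochondria, read 7.87, 7.82 and 7.95 in water rats and 7.15, 6.98 and 7.16 in bromate rats. The groups did not come near each other. Acsm2 fell by 0.78 ± 0.09, to 58.2% of the water level (adjusted p = 0.00724, limma), and kept its call in all 19 alternative settings (adjusted p up to 0.0406). Acsl1, which activates long chains, read 5.29, 5.58 and 5.53 in water rats and 4.96, 4.95 and 5.10 in bromate rats. It fell by 0.46 ± 0.11 (adjusted p = 0.0425), its 3 other probes passed in the same direction, and the call was kept without water replicate 1 (adjusted p = 0.0301) but lost without any 1 of the other arrays (adjusted p up to 0.128). Other scalings also ended the Acsl1 call, with an adjusted p of 0.062 under quantile normalization, 0.0523 with the percentile over probes bright on all arrays and 0.0893 with normexp. Acot1, a thioesterase that releases free fatty acids, read 5.31, 5.37 and 5.26 in water rats and 4.96, 4.85 and 4.81 in bromate rats. The groups did not overlap. Acot1 fell by 0.44 ± 0.08 (adjusted p = 0.0242), a call kept without water replicate 1 (adjusted p = 0.0466) or bromate replicate 1 (adjusted p = 0.0393) and lost without any 1 of the other arrays (adjusted p up to 0.0885).

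Among the genes of uptake, fuel choice and secretion, 1 of 3 rose, where 6.87% of all genes rose. Angptl4, which inhibits lipoprotein lipase and is a widely used readout of PPAR activity, read 4.29, 4.42 and 4.12 in water rats and 5.15, 4.83 and 4.86 in bromate rats. Every bromate rat was higher than every water rat. Angptl4 rose by 0.67 ± 0.13, 1.59-fold (adjusted p = 0.0267, limma), and a second probe rose by 0.65 ± 0.13 (adjusted p = 0.0264), though leaving out any 1 array ended the call (adjusted p 0.0541 to 0.0782). Pdk4, the kinase that shuts pyruvate out of oxidation, read -2.23, -2.48 and -2.25 in water rats and -1.43, -2.04 and -2.26 in bromate rats. Bromate replicate 1 stood highest and bromate replicate 3 lay among the water rats, so the difference of 0.41 ± 0.23 did not pass (adjusted p = 0.265). Cd36, the fatty acid uptake protein, read 2.33, 2.33 and 2.28 in water rats and 1.83, 2.09 and 2.23 in bromate rats. The bromate rats were spread below the tight water group, and the difference of -0.26 ± 0.12 did not pass (adjusted p = 0.19, limma).

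Of 22 other PPAR alpha targets measured, 3 rose (13.6%) and 2 fell (9.09%), with a median of -0.04. Over all genes tested 6.87% rose and 7.59% fell. Plin2, which coats lipid droplets, read 4.67, 4.48 and 4.48 in water rats and 5.77, 5.55 and 5.91 in bromate rats. Cidea, a lipid droplet protein that promotes droplet fusion, read -0.55, -0.62 and -0.79 in water rats and 0.56, 1.01 and 0.95 in bromate rats. Both were higher in every bromate rat. Plin2 rose by 1.21 ± 0.12, 2.31-fold (adjusted p = 0.00489), and Cidea by 1.49 ± 0.15, 2.81-fold (adjusted p = 0.00475, limma). The other lipid droplet genes of the list, Plin5 (-0.11 ± 0.20, adjusted p = 0.739) and Cidec (-0.22 ± 1.21, adjusted p = 0.917), were not called and are named after their values were seen. Creb3l3, a transcription factor of lipid metabolism, fell by 1.06 ± 0.23 (adjusted p = 0.0367). The other two, named after their values were seen, were Acsl4, a synthetase for polyunsaturated chains, which rose by 0.56 ± 0.08 (adjusted p = 0.0123), and Txnip, which lowers glucose uptake and fell by 0.83 ± 0.11 (adjusted p = 0.0107).

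The pathways that receive acetyl-CoA had few calls, 1 or 2 in each direction, and these counts are too small to describe either pathway. Of 7 ketone body genes 1 fell and 1 rose (14.3% each, median -0.26): Acat1, the mitochondrial acetoacetyl-CoA thiolase, fell by 0.90 ± 0.13 (adjusted p = 0.0143) and Aacs, a cytosolic synthetase that uses acetoacetate, rose by 0.77 ± 0.13 (adjusted p = 0.0207, limma). Of 18 citric acid cycle genes 2 fell (11.1%) and 1 rose (5.56%), with a median of -0.23, where 7.59% of all genes fell and 6.87% rose. Idh2, the mitochondrial isocitrate dehydrogenase that forms NADPH, fell by 0.53 ± 0.11 (adjusted p = 0.0306) and Sdhb, a subunit of succinate dehydrogenase, by 0.35 ± 0.08 (adjusted p = 0.0392). Cs, the citrate synthase gene, rose by 0.50 ± 0.08 (adjusted p = 0.0165, limma).

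Where members had other measured probes, these mostly gave the same sign. Of 21 such probes in 14 genes, 17 had the sign of the probe that stood for the gene and 4 the opposite sign, namely the pair of Cyp4a8 probes, 1 of Cpt1b and 1 of Ppara (-0.08 ± 0.26). Of the 21, 9 passed the test in a separate limma fit over the 37783 probes that passed the filter.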

How the data were processed

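Total RNA of renal cortex from 6 rats was labelled with Cy3 and hybridised to 1 Agilent array per rat. Each deposited array file holds an intensity per spot (processed signal) and flags, written by version 10.7 of Agilent's Feature Extraction, per the submitters' processing notes, with probes annotated on rat build rn4 per the file headers. The processed signal is background-subtracted, per the file headers, and not scaled between arrays. The authors' deposited value table holds a ratio on a linear scale, which equalled the processed signal divided by the array's 75th percentile to within 0.241% to 0.415% where the ratio was over 0.05, with column medians of 0.1025 to 0.1054. It is not centred by gene and has the direction of the signal, and the labels do not state its scaling.

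Of 61537 probes, 28206 (45.84%) had 1 gene symbol through RefSeq, 33331 had none and 0 had several. Control spots and outlier spots (0 to 4 per array) were left out. Levels are log2 processed signals, with the 75th percentile of every array set to 0. A probe had to be well above background on at least 3 arrays, and the brightest probe stood for its gene. Groups were compared with limma 3.58.1 (lmFit and eBayes, R 4.3.3), all 6 arrays, no covariates, Benjamini-Hochberg over 27506 genes, threshold 0.05. Adjusted p-values of a member's other probes come from the same model fitted over all 37783 probes that passed the filter. Over all genes 1891 rose and 2088 fell, and 9042 had an unadjusted p under 0.05. Arrays correlated at 0.983 to 0.992 within water, 0.988 to 0.991 within bromate and 0.966 to 0.978 between groups. The fit was tested on simulated data.

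The members and gene lists were chosen with earlier results of these data known. Probes without a symbol stand as 1 per accession; this was settled after member values from a first fit, which kept each such probe apart, had been seen, and both versions are given for Hsd17b4, whose call depends on it. Any member could be named; of each other list, up to 3 called genes with the largest difference, and genes named otherwise are marked as such; a few list genes that the rule would name are not reported here. Promoters come from RefSeq (GRCr8), and no gene coordinates of the array build were used. The labels call the samples biological replicates. Alternatives were other scalings and background corrections, the value table, other filters and probe rules, other variance models, slide and replicate number as blocks, and each array left out.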

Additional observations from a re-analysis of the deposited data

How the results depend on the processing

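The direction of all 16 called members held under 19 alternatives, but the number called did not. Against 14 members lower and 2 higher, there were 2 and 0 with no filter on dim probes, 7 and 0 with slide as a block, and 2 to 9 and 0 to 1 without 1 array. The replicate numbers did not pair the rats (correlation of same-numbered deviations 0.05, 0.07 and -0.10), and with replicate number as a block 4 members were lower and 0 higher, 1 of them a mitochondrial and 0 a peroxisomal enzyme. Against 7 mitochondrial enzymes lower, there were 0 with no filter, 2 with slide as a block and 0 to 4 without 1 array, and their median ran from -0.37 to -0.26. Against 1 peroxisomal enzyme lower, there were 0 under quantile normalization, the percentile over probes bright on all arrays, normexp, no filter, slide as a block, any array left out and unnamed probes kept apart, the last added after the data were seen, and 2 with the intensity trend or array weights. The mitochondrial minus peroxisomal shift of 0.45 was 0.0076 with the filter on all 6 arrays, which drops Acox2, or with Acox2 left out, -0.061 with medians, 0.20 with normexp, and 0.23 to 0.64 without 1 array. The cause of these changes was otherwise not tested. Signs turned only for uncalled genes. Ppara was -0.055 with normexp, -0.036 as the mean of its probes, -0.019 with array weights, -0.092 with slide as a block and -0.20 to 0.32 without 1 array. Cpt1a ran from -0.63 to 0.014 without 1 array, and Cpt1b from -0.031 to 0.28, with -0.29 as the mean of its probes. Over all genes the share called, 14.5%, was 3.18% with no filter, 4.07% with the replicate block and 21.9% with array weights. Members near the threshold, and Acox2 near background, are limited by 3 arrays per group.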
